A study of Drosophila melanogaster with 9 samples.

Results

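Non1, Ns1, Ns2 and Ns3 encode the nucleolar GTPase family members considered here, and p53 encodes the fly p53 transcription factor. The 5 genes were chosen by name, because Non1 has been linked to p53 in the differentiation of germline stem cells. All 5 were found by FlyBase identifier among the 17024 features counted in every library, and all 5 passed the filter on low counts in each comparison. The study recovered RNA bound to Larp, the Drosophila La-related protein, from ovaries of flies carrying larp::GFP::FLAG, a fusion of Larp with GFP and the FLAG tag, dissected 1 to 3 days after eclosion. Anti-FLAG IP libraries (n = 3) hold RNA recovered with an antibody to the tag. IgG control libraries (n = 3) hold RNA recovered with mouse IgG from the same tagged flies. Input libraries (n = 3) were made from 10% of the lysate. Flies without the tag were not analysed here.

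Larp belongs to the La-related proteins that in vertebrates bind mRNAs starting with a terminal oligopyrimidine motif, the mRNAs of ribosomal proteins and translation factors among them. The GTPases of the nucleostemin and Nog1 families act in yeast and animals on precursors of the large ribosomal subunit, where they join and leave at set steps. In many animals, disturbed ribosome assembly is sensed in part through p53, which controls DNA damage responses and apoptosis. Non1 is the counterpart of yeast Nog1 and human GTPBP4, Ns1 is a nucleostemin, Ns2 is the counterpart of yeast Nog2 and human GNL2, and Ns3 is the counterpart of yeast Lsg1, which acts on late, cytoplasmic particles.

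All 5 are protein-coding genes on the minus strand in the annotation of BDGP6.54, whose coordinates are those of dm6. Non1 (FBgn0028473) lies at 2R:9396265-9398734, with 2 transcripts and 2276 bases of exon. Ns1 (FBgn0038473) lies at 3R:17070523-17072675, with 1 transcript and 1895 bases of exon. Ns2 (FBgn0034243) lies at 2R:17565779-17568456, with 1 transcript and 2233 bases of exon. Exons of the oppositely oriented CG14480 and CG46428 cover 74 of those bases (3.31%). Ns3 (FBgn0266284) lies at X:1461844-1464220, with 2 transcripts and 2176 bases of exon. The p53 gene (FBgn0039044) lies at 3R:23049657-23054082, with 4 transcripts and 2136 bases of exon, of which 38.0% (812 bases) are also exon of the antisense RNA asRNA:CR46089. The libraries were strand-specific, but the strand setting of the counting is not given in the sources used here, so part of the p53 count could be antisense RNA. Non1, Ns1 and Ns3 overlap no other annotated gene.

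Libraries held 11316201 to 17571309 counts. Cytoplasmic ribosomal protein genes took 42.3%, 49.5% and 29.5% of the counts in anti-FLAG IP replicates 1, 2 and 3, against 7.21% to 8.79% in IgG control and 8.30% to 10.6% in input. Anti-FLAG IP replicate 3 therefore stood apart from the other two, and the values without it are given beside the results that rest on it. Normalised read counts (CPM, which are counts relative to library size, here with TMM factors from all 9 libraries) of larp, the transcript of the tagged protein, were 289.9, 309.1 and 731.6 in anti-FLAG IP, 125.3, 155.5 and 434.3 in IgG control, against 120.7, 161.6 and 364.9 in input. Replicate 3 was thus the highest for larp in each fraction. Summed germline markers (6 of 8 matched a symbol) came to 2386 to 2649 CPM in anti-FLAG IP, 2316 to 2922 in IgG control and 2304 to 2630 in input. Of these, bgcn, a partner of bam in the differentiation of germline cells, was at 0 in all anti-FLAG IP and IgG control libraries. In input bgcn had only 19, 13 and 38 counts. The mean of bam was 13.0 ± 7.39, 22.9 ± 12.2 and 39.3 ± 3.62 CPM in anti-FLAG IP, IgG control and input (SD, n = 3 each). In anti-FLAG IP against input the edgeR adjusted p was 0.251 for bgcn and 0.0636 for bam. Log2 fold changes of orb, otu, aub and osk in that comparison were 0.41, 0.27, 0.03 and -0.27. The 8 follicle cell markers summed to 10691 to 17544 CPM in anti-FLAG IP, 12604 to 14526 in IgG control and 9010 to 13775 in input. The 10 markers of other tissues summed to 62.2 to 85.6 CPM in anti-FLAG IP, 92.5 to 262.0 in IgG control and 30.6 to 48.7 in input, with Fbp1, Acp26Aa and dj at 0 in all 9 libraries. The part of these markers in the results below was not tested. In whole-ovary lysates, more bound RNA per cell and more cells holding the RNA cannot be told apart.

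Non1 had by far the highest counts of the 5 genes. The deposited counts of Non1 were 10509, 5743 and 10979 in anti-FLAG IP, 3895, 5422 and 4453 in IgG control, against 5824, 5132 and 7501 in input. After scaling, Non1 stood at 1227, 917.0 and 989.4 CPM in anti-FLAG IP, 229.5, 255.9 and 323.2 CPM in IgG control and 356.8, 317.0 and 513.2 CPM in input. All 3 anti-FLAG IP libraries lay above all 6 others, and replicate 3 was the highest both in IgG control and in input. Of the 17024 features, 7575 were tested in anti-FLAG IP against input. There 139 genes (1.83%) were called higher in anti-FLAG IP and 19 (0.251%) lower by edgeR's quasi-likelihood test, a call being an adjusted p under 0.05 and a change of at least 2-fold; with the replicate number as a block 75 were called lower, and without anti-FLAG IP replicate 3 the counts were 213 higher and 145 lower. Of the 5 genes 1, Non1, was called higher and none lower. Its log2 fold change was 1.42 ± 0.23 (SE), or 2.67-fold, with an edgeR adjusted p of 0.00209, and without anti-FLAG IP replicate 3 it was 1.44 (edgeR adjusted p = 0.000233).

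The same libraries set against IgG control gave a larger value for Non1. Among the 7408 genes tested, 120 (1.62%) were called higher in anti-FLAG IP and 1 (0.0135%) lower, or 5 lower with the replicate block. Without anti-FLAG IP replicate 3 the counts were 164 and 20. Non1 and Ns2 were the 2 of the 5 genes called higher, and none was called lower. For Non1 the log2 fold change was 1.96 ± 0.22 (SE), or 3.89-fold, with an edgeR adjusted p of 8.38e-05. Without anti-FLAG IP replicate 3 it was 2.001 (edgeR adjusted p = 1.49e-06). Both comparisons use the same anti-FLAG IP libraries, so they are not independent. Between IgG control and input Non1 had a log2 fold change of -0.55 ± 0.20 (SE) and was not called (edgeR adjusted p = 0.769). Its IgG control values overlapped those of input, although within replicate numbers the log2 ratio was -0.64, -0.31 and -0.67, below 0 in 3 of 3. With the replicate block the edgeR adjusted p was 0.083.

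Ns2, which in yeast acts on nuclear precursors of the large subunit, was the other GTPase whose anti-FLAG IP libraries lay above all others. Counts of Ns2 were 1356, 770 and 2004 in anti-FLAG IP, 627, 1419 and 850 in IgG control, against 1191, 1170 and 1362 in input. The corresponding levels were 158.3, 122.9 and 180.6 CPM in anti-FLAG IP, 37.0, 67.0 and 61.7 CPM in IgG control and 73.0, 72.3 and 93.2 CPM in input. The lowest anti-FLAG IP library lay above the highest input library, and each IgG control library lay below each input library. Against IgG control Ns2 rose with a log2 fold change of 1.48 ± 0.28 (SE), or 2.80-fold, and an edgeR adjusted p of 0.00732. Without anti-FLAG IP replicate 3 the value was 1.36 (edgeR adjusted p = 0.0145). Against input the log2 fold change was 0.97 ± 0.21 (SE), or 1.96-fold, with an edgeR adjusted p of 0.0221. It passed the p threshold and fell short of the 2-fold minimum, so it was not called. It was called without input replicate 3 (1.10) and without anti-FLAG IP replicate 2 (1.09), while without anti-FLAG IP replicate 3 it was 0.82. Over the 6 fits that left out 1 library its edgeR adjusted p ran from 0.0185 to 0.175, above the threshold without input replicate 1, input replicate 2 or anti-FLAG IP replicate 1. With the replicate number as a block its log2 fold change was 0.96 (edgeR adjusted p = 0.00203), again short of 2-fold.

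The groups of Non1 and of Ns2 did not overlap in either comparison of anti-FLAG IP. All anti-FLAG IP libraries lay above all input libraries for 9.33% of the genes tested, and above all IgG control libraries for 6.9%. In IgG control against input, where each IgG control library of Ns2 lay below each input library, that was so for 8.44% of the genes tested. Ns2 had a log2 fold change of -0.52 ± 0.26 (SE) there and was not called (edgeR adjusted p = 0.835). That comparison called 0 of 7594 genes in edgeR (0%), with 465 at an unadjusted p under 0.05. DESeq2 called 19 higher and 6 lower in IgG control, and edgeR with the replicate block called 6 higher and 2 lower.

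**Figure D1:**
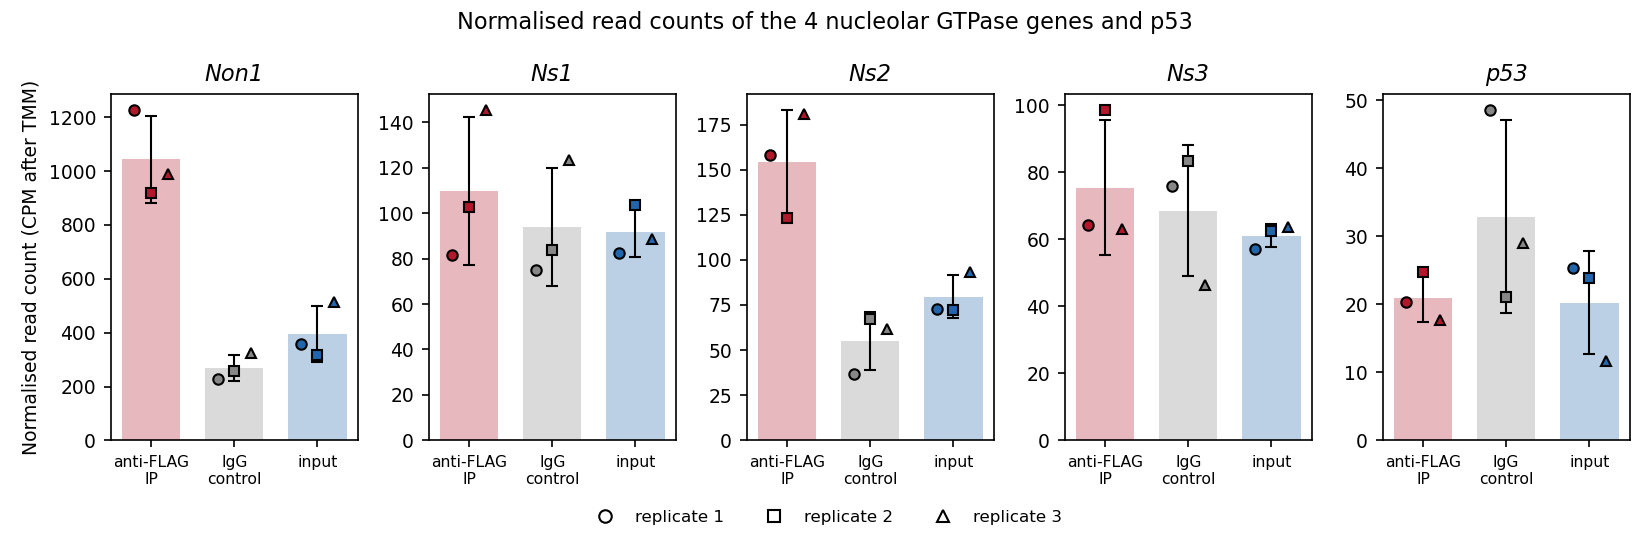
Normalised read counts (CPM after TMM scaling, vertical axes starting at 0 and different for each gene) of Non1, Ns1, Ns2, Ns3 and p53 in anti-FLAG IP, IgG control and input. Points are libraries, with the replicate number by shape, bars are means and error bars are SD (n = 3). For Non1 and Ns2 all anti-FLAG IP points lie above all others, whereas for Ns1, Ns3 and p53 the 3 fractions overlap.

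Ns1, the fly nucleostemin, gave no call in any of the comparisons. Its counts were 698, 643 and 1613 in anti-FLAG IP, 1271, 1771 and 1698 in IgG control, against 1349, 1674 and 1294 in input. Levels of Ns1 were 81.5, 102.7 and 145.4 CPM in anti-FLAG IP, 74.9, 83.6 and 123.3 CPM in IgG control and 82.6, 103.4 and 88.5 CPM in input. Replicate 3 was the highest in both antibody fractions and not in input, and all 3 fractions overlapped. The log2 fold change was 0.28 against input, with an interval of 2 SE on either side of -0.19 to 0.74 (edgeR adjusted p = 0.667). Without anti-FLAG IP replicate 3 it was 0.01. The value against IgG control was 0.23, with an interval of -0.34 to 0.80 (edgeR adjusted p = 0.971), and -0.02 without anti-FLAG IP replicate 3. The value in IgG control against input was 0.04, with an interval of -0.41 to 0.49. With TMM scaling, a 2-fold change in either direction lay outside each of these intervals. Scaled by total counts alone, Ns1 was -0.58 ± 0.30 (SE) against input and -0.58 ± 0.34 against IgG control. With the replicate block as well it was -0.67 ± 0.29 against input (edgeR adjusted p = 0.0424), short of 2-fold. A 2-fold decrease lay within 2 SE of each of these values.

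Ns3, the family member that in yeast acts on cytoplasmic particles, was not called either. Ns3 had 551, 617 and 700 counts in anti-FLAG IP, 1288, 1763 and 638 in IgG control, against 932, 1011 and 931 in input. Scaled, these were 64.3, 98.5 and 63.1 CPM in anti-FLAG IP, 75.9, 83.2 and 46.3 CPM in IgG control and 57.1, 62.4 and 63.7 CPM in input. The input libraries lay close together, and replicate 2 was the highest in both antibody fractions. Against input the log2 fold change was 0.32, with an interval of -0.16 to 0.79 (edgeR adjusted p = 0.623), and against IgG control it was 0.14, with an interval of -0.48 to 0.76 (edgeR adjusted p = 0.986). Without anti-FLAG IP replicate 3 these values were 0.41 and 0.26. For IgG control over input the log2 fold change was 0.17, with an interval of -0.34 to 0.68.

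The p53 transcript was the least abundant of the 5 and had the largest relative spread in IgG control and input. It had 174, 155 and 197 counts in anti-FLAG IP, 824, 445 and 399 in IgG control, against 413, 386 and 170 in input. Levels of p53 were 20.3, 24.7 and 17.8 CPM in anti-FLAG IP, 48.6, 21.0 and 29.0 CPM in IgG control and 25.3, 23.8 and 11.6 CPM in input. The highest was IgG control replicate 1 and the lowest was input replicate 3, and no pair of fractions was separated. Its log2 fold change against input was 0.06, with an interval of -0.65 to 0.78 (edgeR adjusted p = 0.964). The value against IgG control was -0.64, with an interval of -1.49 to 0.21 (edgeR adjusted p = 0.867). The IgG control value over input was 0.70, with an interval of -0.17 to 1.57 (edgeR adjusted p = 0.889). Without IgG control replicate 1 these last values were -0.24 and 0.31. Without anti-FLAG IP replicate 3, p53 was at 0.15 against input and -0.53 against IgG control. A 2-fold change lay inside both of the last intervals and was not detectable at this depth and spread.

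**Figure D2:**
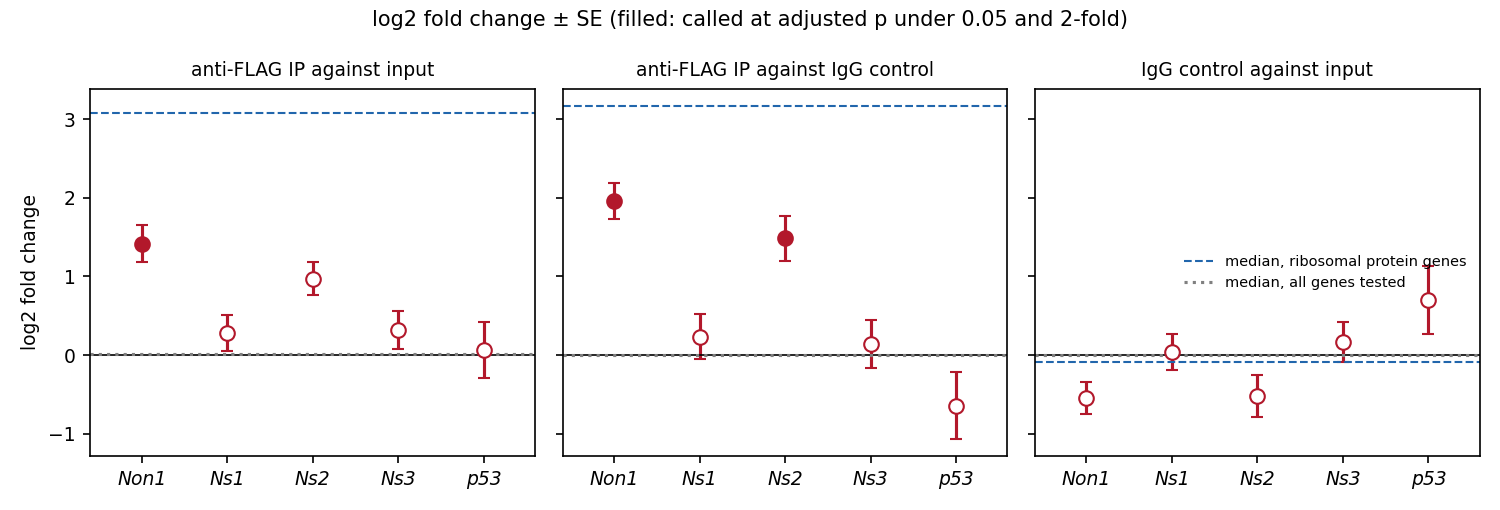
The log2 fold change of each of the 5 genes (points, with bars of 1 SE) in anti-FLAG IP against input, anti-FLAG IP against IgG control and IgG control against input. Filled points passed both thresholds, the dashed line is the median of the tested cytoplasmic ribosomal protein genes and the dotted line the median of all genes tested. Non1 and Ns2 lie between those medians in both comparisons of anti-FLAG IP, and the points of the other 3 genes are open throughout.

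Over all genes tested, the median log2 fold change was 0.01 against input and 0.00 against IgG control, and that of 79 tested ribosomal protein genes was 3.08 and 3.17, with 76 of 79 called higher in each. Non1 ranked 277 of 7575 genes by log2 fold change against input and 172 of 7408 against IgG control. Only 2 of the 79 ribosomal protein genes had a lower value than Non1 against input and 3 against IgG control. Ns2 ranked 483 and 242 in the same comparisons. The sign and size of these log2 fold changes rest on TMM scaling, which holds the bulk of genes near 0. The ranks were not recomputed on another scale. Scaled by total counts alone, the median of all genes was -0.88 against input and -0.84 against IgG control. On that scale Non1 was 0.54 and not called against input (edgeR adjusted p = 0.105) and 1.12 and called against IgG control (edgeR adjusted p = 0.0124), which is 1.41 and 1.96 above the median of all genes. Ns2 was 0.11 and 0.67 and called in neither, 0.99 and 1.51 above that median. Its total-scaled anti-FLAG IP value in replicate 2, 67.6 CPM, lay below its 3 input values of 90.0 to 109.2 CPM. The log2 fold changes of Ns1, Ns3 and p53 turned negative against input on that scale (-0.58, -0.62 and -0.88), as did those of Ns1 and Ns3 against IgG control (-0.58 and -0.75), and p53 was called lower against IgG control (-1.52, edgeR adjusted p = 0.0265). Relative to the median of all genes, p53 was 0.00 against input and -0.68 against IgG control.

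Libraries of the same replicate number deviated together, and the log2 ratio of anti-FLAG IP to input within a number was 1.78, 1.53 and 0.95 for Non1 in numbers 1, 2 and 3. For Ns2 it was 1.12, 0.77 and 0.95. Both genes were higher in anti-FLAG IP in 3 of 3 numbers. The smallest Non1 ratio was in number 3, which had the highest Non1 input (513.2 CPM, against 356.8 and 317.0). The anti-FLAG IP library of number 3 also had the lowest ribosomal protein share of that fraction. The fitted value of Non1 was 1.65 without input replicate 3 and 1.44 without anti-FLAG IP replicate 3. What lowered the ratio in number 3 was not tested. For Ns1 the log2 ratio to input was -0.02, -0.01 and 0.72, for Ns3 0.17, 0.66 and -0.01, and for p53 -0.32, 0.05 and 0.61. None of these 3 genes had the same sign in all numbers against input. Against IgG control the ratios were 2.42, 1.84 and 1.61 for Non1 and 2.099, 0.88 and 1.55 for Ns2, again above 0 in 3 of 3 numbers. For Ns1 they were also above 0 in 3 of 3 numbers, at 0.12, 0.30 and 0.24. For Ns3 they were -0.24, 0.24 and 0.45 and for p53 -1.26, 0.24 and -0.71, of mixed sign. These signs depend on the TMM scaling. Scaled by total counts alone, Non1 stayed above 0 in 3 of 3 numbers in both comparisons, and Ns2 was above 0 in 2 of 3. On that scale Ns1 was -0.72, -0.84 and -0.36 against IgG control. Ns3 and p53 were above 0 there in 0 of 3, as was Ns3 against input. How many of all genes were above 0 in 3 of 3 numbers was not counted.

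Ratios of counts within a library need no scaling between libraries, and they set Non1 directly against its relatives. The number of Non1 counts per Ns1 count was 15.1, 8.93 and 6.81 in anti-FLAG IP, 3.06, 3.06 and 2.62 in IgG control, against 4.32, 3.07 and 5.80 in input. Per Ns3 count it was 19.1, 9.31 and 15.7 in anti-FLAG IP, 3.02, 3.08 and 6.98 in IgG control, against 6.25, 5.08 and 8.06 in input. In both ratios each anti-FLAG IP library lay above all others, with 2.28-fold (Ns1) and 2.22-fold (Ns3) differences from input and 3.34-fold and 3.50-fold differences from IgG control. Each of these 4 gave p = 0.1 in a two-sided exact permutation test, the smallest that 3 libraries against 3 allow, and 0.142 after Benjamini-Hochberg adjustment over 27 such tests. That test cannot reach 0.05 with 3 libraries against 3. These ratios, and those to Ns2 and p53 below, use the same counts as the fits and add no separate evidence. How many of all pairs of genes separate in this way was not counted.

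Non1 per Ns2 count was 7.75, 7.46 and 5.48 in anti-FLAG IP, 6.21, 3.82 and 5.24 in IgG control, against 4.89, 4.39 and 5.51 in input. The fractions overlapped, with a 1.39-fold difference from input and 1.37-fold from IgG control (exact permutation p = 0.2, adjusted 0.245, for each). Per p53 count there were 60.4, 37.1 and 55.7 Non1 counts in anti-FLAG IP, 4.73, 12.2 and 11.2 in IgG control, against 14.1, 13.3 and 44.1 in input. Each anti-FLAG IP library lay above each IgG control library, with a difference of 5.79-fold (exact permutation p = 0.1, adjusted 0.142). Input replicate 3, where p53 was lowest, lay within the range of anti-FLAG IP, and the difference from input was 2.47-fold (exact permutation p = 0.2, adjusted 0.245).

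**Figure D3:**
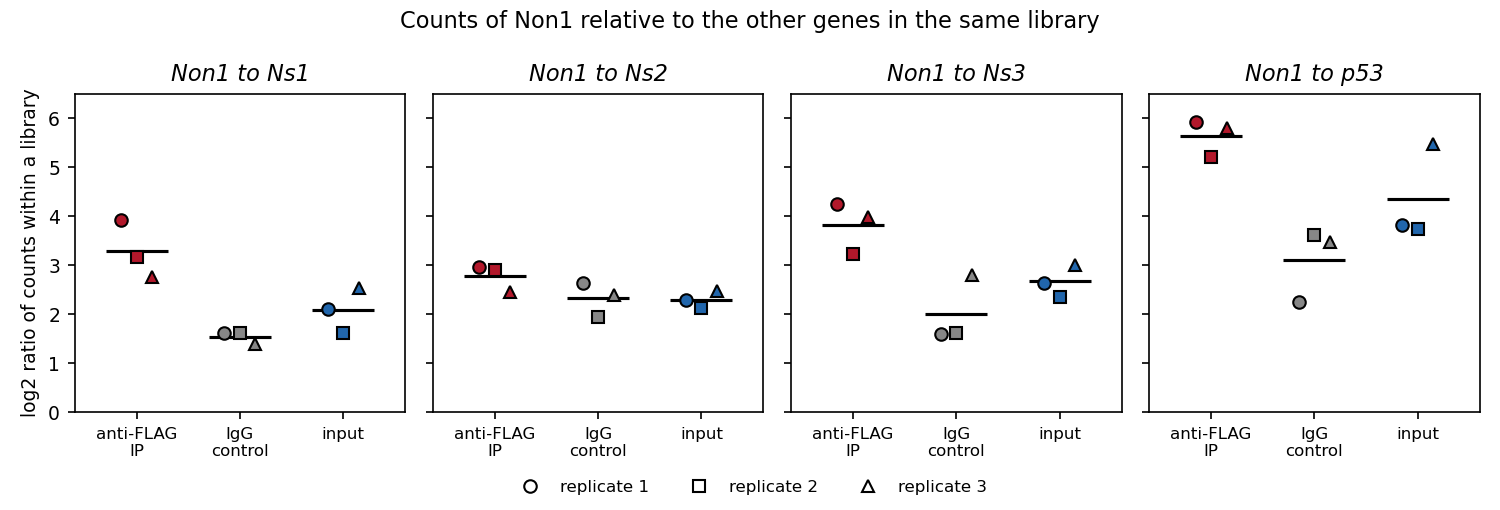
The log2 ratio of Non1 counts to Ns1, Ns2, Ns3 and p53 counts in the same library, for anti-FLAG IP, IgG control and input. Points are libraries, with the replicate number by shape, and lines are means (n = 3). Anti-FLAG IP lies above both other fractions for Ns1 and Ns3 and overlaps both for Ns2.

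The ratio of Ns2 to Ns1 was computed after the values were seen and was not tested. There were 1.94, 1.20 and 1.24 Ns2 counts per Ns1 count in anti-FLAG IP, 0.493, 0.801 and 0.501 in IgG control, against 0.883, 0.699 and 1.05 in input. Each anti-FLAG IP library lay above all others, and how many pairs of genes do so was not counted. Within the 5 genes, Non1 made up 79.1%, 72.4% and 70.9% of the summed counts in anti-FLAG IP, 49.3%, 50.1% and 55.4% in IgG control, against 60.0%, 54.8% and 66.6% in input.

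Set against the ribosomal protein mRNAs, the same genes took a smaller proportion of counts in anti-FLAG IP. Non1 counts per 1000 ribosomal protein counts were 1.95, 1.02 and 2.69 in anti-FLAG IP, 3.83, 3.51 and 4.49 in IgG control, against 5.61, 4.56 and 5.69 in input. Each anti-FLAG IP library lay below all others, at 0.332 of input and 0.445 of IgG control (exact permutation p = 0.1, adjusted 0.142, for each). Ribosomal protein genes took 29.5% to 49.5% of counts in anti-FLAG IP and 7.21% to 10.6% in the other fractions. That lowers this ratio for any gene whose counts did not rise as much. The separation and its p therefore carry no evidence particular to Non1. How many of all genes separate in this way was not counted. For Ns2 the proportion was 0.239 of input and 0.326 of IgG control. For Ns1, Ns3 and p53 it was 0.145, 0.150 and 0.134 of input, and these too had no overlap between anti-FLAG IP and input. With the counts outside ribosomal protein genes as the denominator, the log2 differences of Non1 were 1.15 from input and 1.74 from IgG control, in the opposite direction, as were those of Ns2 (0.67 and 1.29). With that denominator the log2 differences from input were -0.046 for Ns1, -0.0019 for Ns3 and -0.16 for p53 (exact permutation p = 0.8, 1.0 and 0.7), so the smaller proportions of these genes rested on the ribosomal protein denominator.

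Levels were compared between genes per kilobase of exon. In anti-FLAG IP the order was Non1 (458.9 ± 71.3 CPM per kb, SD, n = 3), Ns2 (68.9 ± 13.0), Ns1 (58.0 ± 17.2), Ns3 (34.6 ± 9.24) and p53 (9.80 ± 1.66). In IgG control it was Non1 (118.4 ± 21.2), Ns1 (49.6 ± 13.6), Ns3 (31.5 ± 8.98), Ns2 (24.7 ± 7.18) and p53 (15.4 ± 6.64). In input it was Non1 (173.8 ± 45.6), Ns1 (48.3 ± 5.64), Ns2 (35.6 ± 5.32), Ns3 (28.1 ± 1.61) and p53 (9.48 ± 3.51). No neighbours overlapped in input. In anti-FLAG IP the ranges of Ns2 and Ns1 overlapped, as did those of Ns1 and Ns3, and in IgG control those of Ns3 and Ns2 and of Ns2 and p53. Non1 was at percentile 97.9, 93.9 and 95.9 of the levels per kb in anti-FLAG IP, IgG control and input, and p53 at 30.3, 45.9 and 32.0.

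The genes most like each of the 5 were sought by Pearson's r of log2(CPM + 1) over the 9 libraries, among the 6845 genes that averaged 50 counts or more. These values describe 9 libraries that share fractions, replicate numbers and depth, and carry no p. The genes were picked by their pattern in the same libraries, so the calls given for them add no separate evidence. Nearest to Non1 were the ribosomal protein genes RpL23 (r = 0.982), RpS18 (0.981) and RpS25 (0.973), together with eEF2 (0.975), the factor that moves the ribosome along the mRNA, and eIF3m (0.973), a subunit of an initiation factor. Of these, eIF3m had log2 fold changes of 2.16 against input and 2.37 against IgG control and was called in both (edgeR adjusted p = 9.13e-05 and 7.76e-05). The values of eEF2 were 0.78 and 1.295, and it was called in neither (edgeR adjusted p = 0.292 and 0.0523).

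Nearest to Ns2 were Ddx56 (r = 0.965), a DEAD-box RNA helicase, eEF2 (0.960) and Non1 (0.943). Ddx56 was called higher against input (1.16, edgeR adjusted p = 0.00210) and against IgG control (1.67, edgeR adjusted p = 0.00162). Between other pairs of the 5 genes r was at most 0.46 (Ns1 and Ns2), with 0.34 for Non1 and Ns1, 0.14 for Non1 and Ns3, -0.48 for Non1 and p53 and -0.66 for Ns2 and p53. Nearest to Ns1 were Sgt1 (0.938), a co-chaperone, mRpL32 (0.914), a mitochondrial ribosomal protein, and Bet5 (0.912), a subunit of a vesicle tethering complex. Ns3 was nearest to CG6073 (0.926), the proteasome subunit Prosalpha2 (0.925) and the asparaginyl-tRNA synthetase AsnRS (0.923), and p53 to nero (0.978), the deoxyhypusine hydroxylase, CG11808 (0.952) and Cox17 (0.943), a copper chaperone. None of these 9 genes was called in any comparison.

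Among other factors that build the large subunit, RpL24-like and CG13185 were called. Of 22 such genes, all tested, 2 were called higher and none lower in anti-FLAG IP against input, beside 1.83% and 0.251% of all genes. Their log2 fold changes were above 0 for 13 of the 22, with a median of 0.10 beside 0.01 for all genes. Nnp-1 had 0.78 and passed the p threshold (edgeR adjusted p = 0.0466) without reaching 2-fold, a gene named here after its values were seen. RpL24-like, a placeholder for a ribosomal protein on the precursor particle, had 311.3, 282.8 and 419.9 CPM in anti-FLAG IP, 75.6, 114.5 and 146.8 in IgG control, against 115.8, 125.6 and 124.8 in input. Its anti-FLAG IP libraries all lay above the others. RpL24-like had a log2 fold change of 1.48 ± 0.19 (SE) against input (edgeR adjusted p = 0.000283) and 1.60 ± 0.26 against IgG control (edgeR adjusted p = 0.00177). CG13185, the counterpart of yeast midasin, a very large ATPase that remodels the particle, had 281.4, 226.1 and 154.9 CPM in anti-FLAG IP, 95.0, 83.0 and 134.7 in IgG control, against 68.7, 71.6 and 99.6 in input. It had a log2 fold change of 1.48 ± 0.24 (SE) against input (edgeR adjusted p = 0.00203) and 1.09 ± 0.27 against IgG control, where it was not called (edgeR adjusted p = 0.0652). Against IgG control 1 of the 22 was called higher, beside 1.62% of all genes, and none lower (median -0.03 beside 0.00), and in IgG control against input none was called (median 0.10 beside 0.00), with Nnp-1 highest at 0.41 and CG7006 lowest at -1.08.

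None of 5 other GTPases of ribosome assembly and of the DRG family was called in any comparison. With 1.83% and 1.62% of all genes called higher in anti-FLAG IP against input and IgG control, a count of 0 among 5 is near the background. Their median log2 fold change was -0.32 against input and 0.13 against IgG control. The highest in both was CG33158, the counterpart of yeast and human EFL1, which releases eIF6 from the large subunit. It had 46.7, 26.0 and 50.01 CPM in anti-FLAG IP, 10.8, 19.2 and 37.8 in IgG control, against 28.8, 21.0 and 36.7 in input, with overlap between the fractions. Its log2 fold changes were 0.52 (edgeR adjusted p = 0.505) and 0.87 (edgeR adjusted p = 0.767). The lowest were CG6195, a DRG-family GTPase, against input (-0.38), while the lowest value against IgG control was -0.10. Between IgG control and input the median was -0.41, with Tsr1, a factor of small-subunit assembly, lowest at -0.51.

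In the wider p53 pathway, counts of calls were near the background. Of 19 genes of DNA damage signalling, repair and apoptosis, 17 were tested, since rpr and skl, apoptosis activators, had at most 16 counts in any library. None of the 17 was called in any comparison, beside 1.83% and 1.62% of all genes called higher in anti-FLAG IP against input and IgG control. The median log2 fold change was -0.22 against input, -0.17 against IgG control and -0.14 in IgG control against input, beside 0.01, 0.00 and 0.00 for all genes. Values were above 0 for 2, 3 and 4 of the 17 in these comparisons, which was not tested. The highest against input was Corp, a fly antagonist of p53, with 35.7, 31.8 and 50.8 CPM in anti-FLAG IP, 61.9, 50.1 and 42.9 in IgG control, against 23.3, 31.1 and 18.7 in input. Its anti-FLAG IP libraries lay above input and overlapped IgG control, and the log2 fold changes were 0.71 against input (edgeR adjusted p = 0.291) and -0.38 against IgG control (edgeR adjusted p = 0.932). In IgG control against input it was also the highest, at 1.09 (edgeR adjusted p = 0.672). The lowest was Dark, the fly counterpart of Apaf-1, with 15, 0 and 20 counts in anti-FLAG IP, 0, 116 and 25 in IgG control, against 174, 118 and 241 in input. Each anti-FLAG IP library lay below each input library, yet the fitted log2 fold change of -3.21 ± 0.95 (SE) did not pass (edgeR adjusted p = 0.104). Dark was also the lowest against IgG control (-1.02, edgeR adjusted p = 0.987), where tefu, the fly ATM kinase, was the highest at 0.50 (edgeR adjusted p = 0.867), and in IgG control against input (-2.23, edgeR adjusted p = 0.890).

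**Figure D4:**
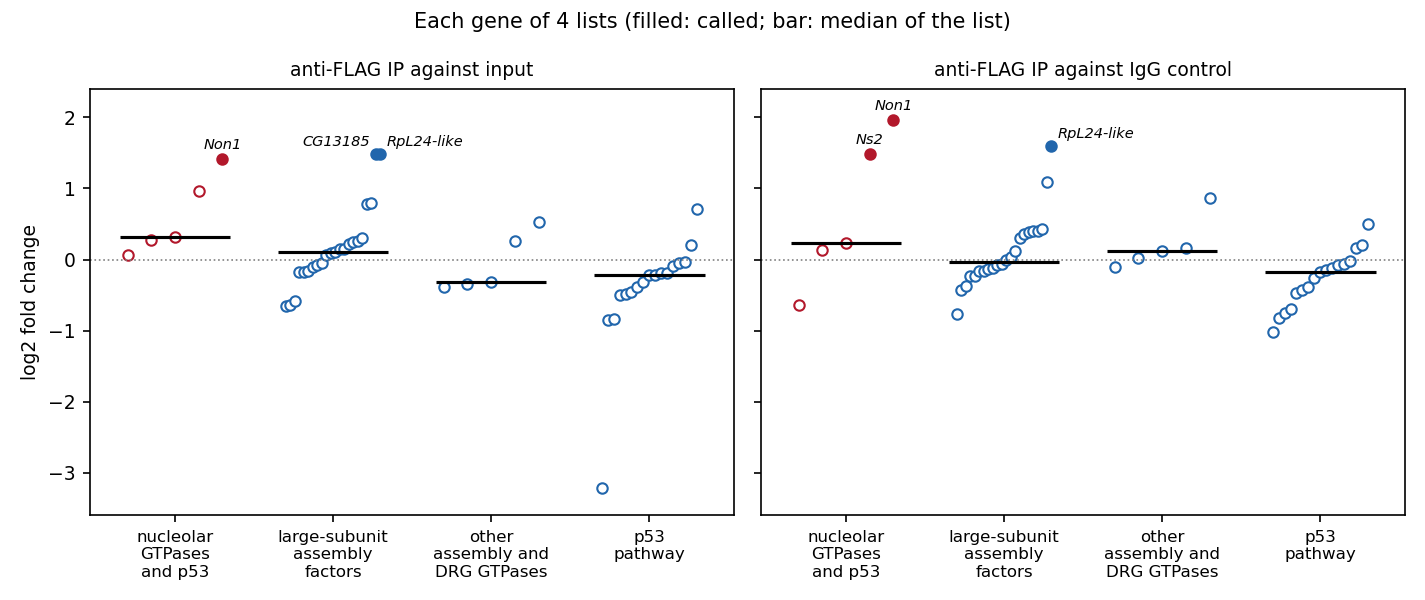
The log2 fold change of each gene in 4 lists, in anti-FLAG IP against input and in anti-FLAG IP against IgG control. Points are genes, filled where called, and bars are list medians. Called genes are Non1, RpL24-like and CG13185 against input and Non1, Ns2 and RpL24-like against IgG control, and the other GTPases and the p53 pathway hold no filled point.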

How the data were processed

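For each of the 9 libraries the authors deposited whole-number read counts per FlyBase gene, not normalized. The submitters' processing notes name HISAT2 2.1.0, featureCounts 1.4.6 and dm6. The annotation release and strand setting are not given in the sources used here. Symbols were matched for 16647 of 17024 features. Gene lengths and positions came from the Ensembl annotation of BDGP6.54. The 5 genes and all lists were chosen with earlier results of these data known.

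Groups and replicate numbers came from the labels. Each pair of fractions was fitted alone in edgeR 4.0.16 (R 4.3.3) with its robust quasi-likelihood F test after TMM scaling and filterByExpr, with Benjamini-Hochberg adjustment over all genes tested. SE came from the F statistic. Within-library ratios were tested by exact permutation (scipy 1.17.1). Named beyond the 5 genes were larp, the 3 genes nearest to each (5 for Non1), and in each list the called genes or else the highest and lowest log2 fold change. Alternatives were other scalings, DESeq2 1.42.0, no filter, all libraries in 1 fit, a replicate block and leaving out each library; added after seeing the data were leaving out a feature with a shortened identifier (0.0065% to 7.89% of counts) and total-count scaling with the block. The code was tested on simulated data.

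The labels number replicates 1 to 3 in each fraction. Deviations from the group means over 6845 genes correlated between same-numbered libraries at 0.159 to 0.436 in all 9 pairs. Across fractions, libraries numbered 1 and 2 correlated with each other at 0.016 to 0.123, and with those numbered 3 at -0.349 to -0.154. The numbers were therefore taken to pair the libraries, with number 3 the most distinct. The main fits and the exact permutation tests did not use this pairing, and the replicate block did. Nothing in the labels says that the replicates are separate cultures or animals, so p-values measure the spread between these samples, which may be technical. A count of 0 allows up to 3 counts, or 0.171 to 0.265 CPM before scaling, and covers counting error only.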

Additional observations from a re-analysis of the deposited data

How the results depend on the processing

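Non1 stayed called against IgG control in all 15 alternatives and against input in 13 of 15, and Ns2 was called against IgG control in 13 of 15; over all 5 genes and 3 comparisons 199 of 225 alternative values kept their direction and stayed called or not called, a call needing both the p threshold and 2-fold; the p of Ns2 against input alone crossed 0.05 in some of these, as with 1 fit of all libraries (edgeR adjusted p = 0.0642). Over these 15 the edgeR or DESeq2 adjusted p ran from 2.31e-08 to 0.105 (input) and 1.14e-20 to 0.0124 (IgG control) for Non1, from 0.00183 to 0.879 and 1.24e-06 to 0.128 for Ns2, and from 0.0133 to 1.0 for p53 against IgG control. The exceptions came mainly from total-count scaling, under which the median gene stood at -0.88 against input and -0.84 against IgG control and which leaves anti-FLAG IP, where ribosomal protein genes take up to 49.5% of counts, with lower values for most others. Under total-count scaling with the replicate block, Non1 was 0.52, Ns1 -0.67, Ns3 -0.62 and p53 -0.79 against input, and Ns1 -0.64, Ns2 0.65, Ns3 -0.71 and p53 -1.43 against IgG control, and Ns1 -0.028 in IgG control against input. Under total-count scaling alone Non1 was 0.54, Ns1 -0.58, Ns3 -0.62 and p53 -0.88 against input, and Ns1 -0.58, Ns2 0.67, Ns3 -0.75 and p53 -1.52 against IgG control.

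Leaving out 1 library, values ran against input from 0.82 to 1.10 for Ns2 and from -0.22 to 0.25 for p53, against IgG control from -0.018 to 0.47 for Ns1 and from -0.11 to 0.32 for Ns3, and in IgG control against input from -0.21 to 0.18 for Ns1. Further, p53 ran from -0.87 to -0.24 against IgG control and from 0.31 to 0.94 in IgG control against input, and in the last comparison Ns2 ran from -0.69 to -0.30 and Non1 from -0.71 to -0.32, none of them called. The call of Ns2 against input turned on input replicate 3 (1.10 without it) and anti-FLAG IP replicate 2 (1.09 without it). Reversals of p53 (-0.22 without input replicate 3, -0.09 without anti-FLAG IP replicate 2), Ns3 (-0.08 without IgG control replicate 3, -0.11 without anti-FLAG IP replicate 2) and Ns1 (-0.018 without anti-FLAG IP replicate 3 against IgG control; -0.21 without IgG control replicate 3 and -0.03 without input replicate 1 in IgG control against input) concerned values that were not called.

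Counts of genes called lower against input were 2212 with total-count scaling, 2577 with that and the replicate block, 53 with DESeq2, 56 without the filter and 75 with the replicate block, and ran from 7 to 145 without 1 library; the 145 and 213 called higher came without anti-FLAG IP replicate 3. Called higher ran from 118 to 213 without 1 library. Called lower against IgG control were 1387 genes with total-count scaling and 1761 with that and the replicate block. RLE scaling gave 2, DESeq2 25, no filter 15, 1 fit of all libraries 2 and the replicate block alone 5. Without 1 library the count ran from 0 to 20. In IgG control against input DESeq2 called 19 higher and 6 lower, the replicate block 6 and 2, total-count scaling with the block 5 and 2, and no filter and 1 fit of all libraries 1 higher each, as did leaving out IgG control replicate 2 (0 to 1 over left-out libraries). The replicate block changed no call of the 5 genes; with it Non1 was 1.44 against input and 1.96 against IgG control and Ns2 0.96 and 1.51.

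Of 123 alternative ratios, 116 kept their direction. With counts outside ribosomal protein genes as denominator, Non1 was 1.15 and 1.74 and Ns2 0.67 and 1.29 against input and IgG control, and Ns1 -0.042 in IgG control against input, by construction of the denominator. Leaving out 1 replicate number, the last ratio, to ribosomal protein counts, ran from -0.22 (without replicate 3) to 0.37 and Non1 to Ns2 in that comparison from -0.14 (without replicate 1) to 0.14. The cause of the other changes was not tested. With 3 libraries a fraction and 155 to 824 counts, depth and spread limit p53 most.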
